A study of Mus musculus with 20 samples.

Results

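Arg1, Slc7a2, Mrc1, Clec7a, Cd209e, Mgl2, Clec10a, Egr2 and Socs2 are 9 genes used as markers of alternatively activated macrophages. They were chosen by gene symbol from a table of 24054 genes measured by RNA sequencing of whole mouse lung. All 9 had enough counts to be tested, among 16193 genes that did. The study set lungs of mice challenged with house dust mite extract (HDM), an airborne allergen, beside lungs of mice given saline, in ALOX15 knockout and wild-type animals. Alox15 encodes a lipoxygenase that adds oxygen to polyunsaturated fatty acids and is itself induced by IL-4 in human monocytes.

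All animals were female C57Bl6 mice, and each of the 4 groups had 5 libraries that the labels call biological replicates. KO-HDM mice were labelled ALOX15 knockout and challenged with HDM through the nose every day for 14 days, and KO-PBS mice had the same label and received saline. WT-HDM mice were wild type with the same HDM challenge, and WT-PBS mice were wild type with saline. The knockout allele, the age of the animals and whether the genotypes shared litters are not given in the sources used here. Total expected counts ran from 12573113 to 23305673 per library. The lung markers were checked in each group: the surfactant gene Sftpc was at 3973 to 6588 CPM (counts scaled to a common TMM-adjusted library size) in KO-HDM, 7796 to 12491 CPM in KO-PBS, 4154 to 9971 CPM in WT-HDM and 4744 to 9360 CPM in WT-PBS. Scgb1a1, the secretoglobin of airway club cells, averaged 5549 ± 1751 CPM in KO-HDM, 19818 ± 3899 CPM in KO-PBS, 5857 ± 1867 CPM in WT-HDM and 15434 ± 1877 CPM in WT-PBS (SD, n = 5 each).

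The targeted gene went against the genotype label. Alox15 had a median of 42.2 CPM in KO-HDM (35.0 to 45.5) and 40.8 CPM in KO-PBS (38.4 to 44.7), against 19.8 CPM in WT-HDM (7.92 to 29.8) and 3.87 CPM in WT-PBS (0.825 to 11.1). Its log2 fold change in libraries labelled knockout over wild type was 3.15 ± 0.45 (SE) under saline, with an edgeR adjusted p of 0.000583, and 1.15 under HDM (adjusted p = 0.107). Differences between genotypes are therefore written as those of libraries that carry the knockout label, set against the wild-type ones.

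Alternative activation is the state that macrophages take up under the type 2 cytokines IL-4 and IL-13, which signal through the transcription factor STAT6. It is marked in mice by a switch of arginine use towards arginase, by lectin receptors that bind mannose, galactose or glucan, and by chitinase-like and resistin-like secreted proteins. In the lung it is known from allergic inflammation, worm infection and tissue repair. In RNA from a whole organ, fewer cells of a type and less RNA per cell cannot be told apart.

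RefSeq (GRCm38.p6) gave a promoter for 5 of the 9 genes (Mrc1, Clec7a, Cd209e, Mgl2 and Egr2). The 250 bases before the start site were searched for TTC and GAA with 4 bases of any kind between them, the palindrome with the spacing favoured by STAT6, and for TTCNNNGAA, with 3 such bases, the spacing of other STAT factors. Each motif reads the same on both strands, and a match to one cannot start at the same base as a match to the other. The palindrome with 4 bases between was found in 2 of the 5 genes, Clec7a and Cd209e, and in 5.85% of 32851 promoter windows of the same length over the genome, or in at least 1 window of 6.76% of 27025 genes. TTCNNNGAA was found in 0 of the 5 genes and in 7.02% of those windows (8.13% of the genes). Windows that lie wholly before every annotated start of their gene are printed, which leaves 3 genes, all lectin receptors that rose under HDM. Those of Mgl2 and Egr2, without a match, do not lie so and are not printed. The printed windows run 5′ to 3′ on the strand of the gene, with the match in capitals: Mrc1 at chr2:14229164-14229413 on the plus strand (no match), Clec7a at chr6:129472786-129473035 on the minus strand (match 125 to 116 bases before the start) and Cd209e at chr8:3854287-3854536 on the minus strand (match 79 to 70 bases before the start).
Mrc1: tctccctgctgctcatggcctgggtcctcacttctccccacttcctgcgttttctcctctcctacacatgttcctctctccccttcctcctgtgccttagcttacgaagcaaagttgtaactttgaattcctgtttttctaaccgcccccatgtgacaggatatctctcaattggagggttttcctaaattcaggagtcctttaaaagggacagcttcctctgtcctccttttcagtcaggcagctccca
Clec7a: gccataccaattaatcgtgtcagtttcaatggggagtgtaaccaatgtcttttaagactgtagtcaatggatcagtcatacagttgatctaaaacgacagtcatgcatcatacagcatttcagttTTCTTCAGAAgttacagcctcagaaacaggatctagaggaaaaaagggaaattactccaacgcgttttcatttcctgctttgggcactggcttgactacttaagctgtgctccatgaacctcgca
Cd209e: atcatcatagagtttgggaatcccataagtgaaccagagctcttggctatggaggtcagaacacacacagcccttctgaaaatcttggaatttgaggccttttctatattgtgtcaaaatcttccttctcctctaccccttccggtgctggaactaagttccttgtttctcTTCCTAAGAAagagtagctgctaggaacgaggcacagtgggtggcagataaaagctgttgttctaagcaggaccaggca
A match is a description of these letters and not a binding site.

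HDM raised 7 of the 9 genes in each genotype. In wild-type lungs Arg1, Slc7a2, Mrc1, Clec7a, Cd209e, Egr2 and Mgl2 passed, and in lungs labelled knockout Clec10a passed in place of Mgl2. The background is given by all tested genes, of which 26.2% were called higher in the libraries labelled knockout and 13.6% in wild type (51.9% and 30.1% in either direction). The median log2 fold change of the 9 genes was 1.87 in the libraries labelled knockout, beside 0.02 over all genes, and 1.38 in wild type, beside -0.02 over all genes. No member fell past the test in either genotype, beside 25.7% of all genes in the libraries labelled knockout and 16.5% in wild type. Here and below a gene is said to have risen or fallen at a Benjamini-Hochberg adjusted p under 0.05 in edgeR's quasi-likelihood test over all 16193 genes.

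**Figure D1:**
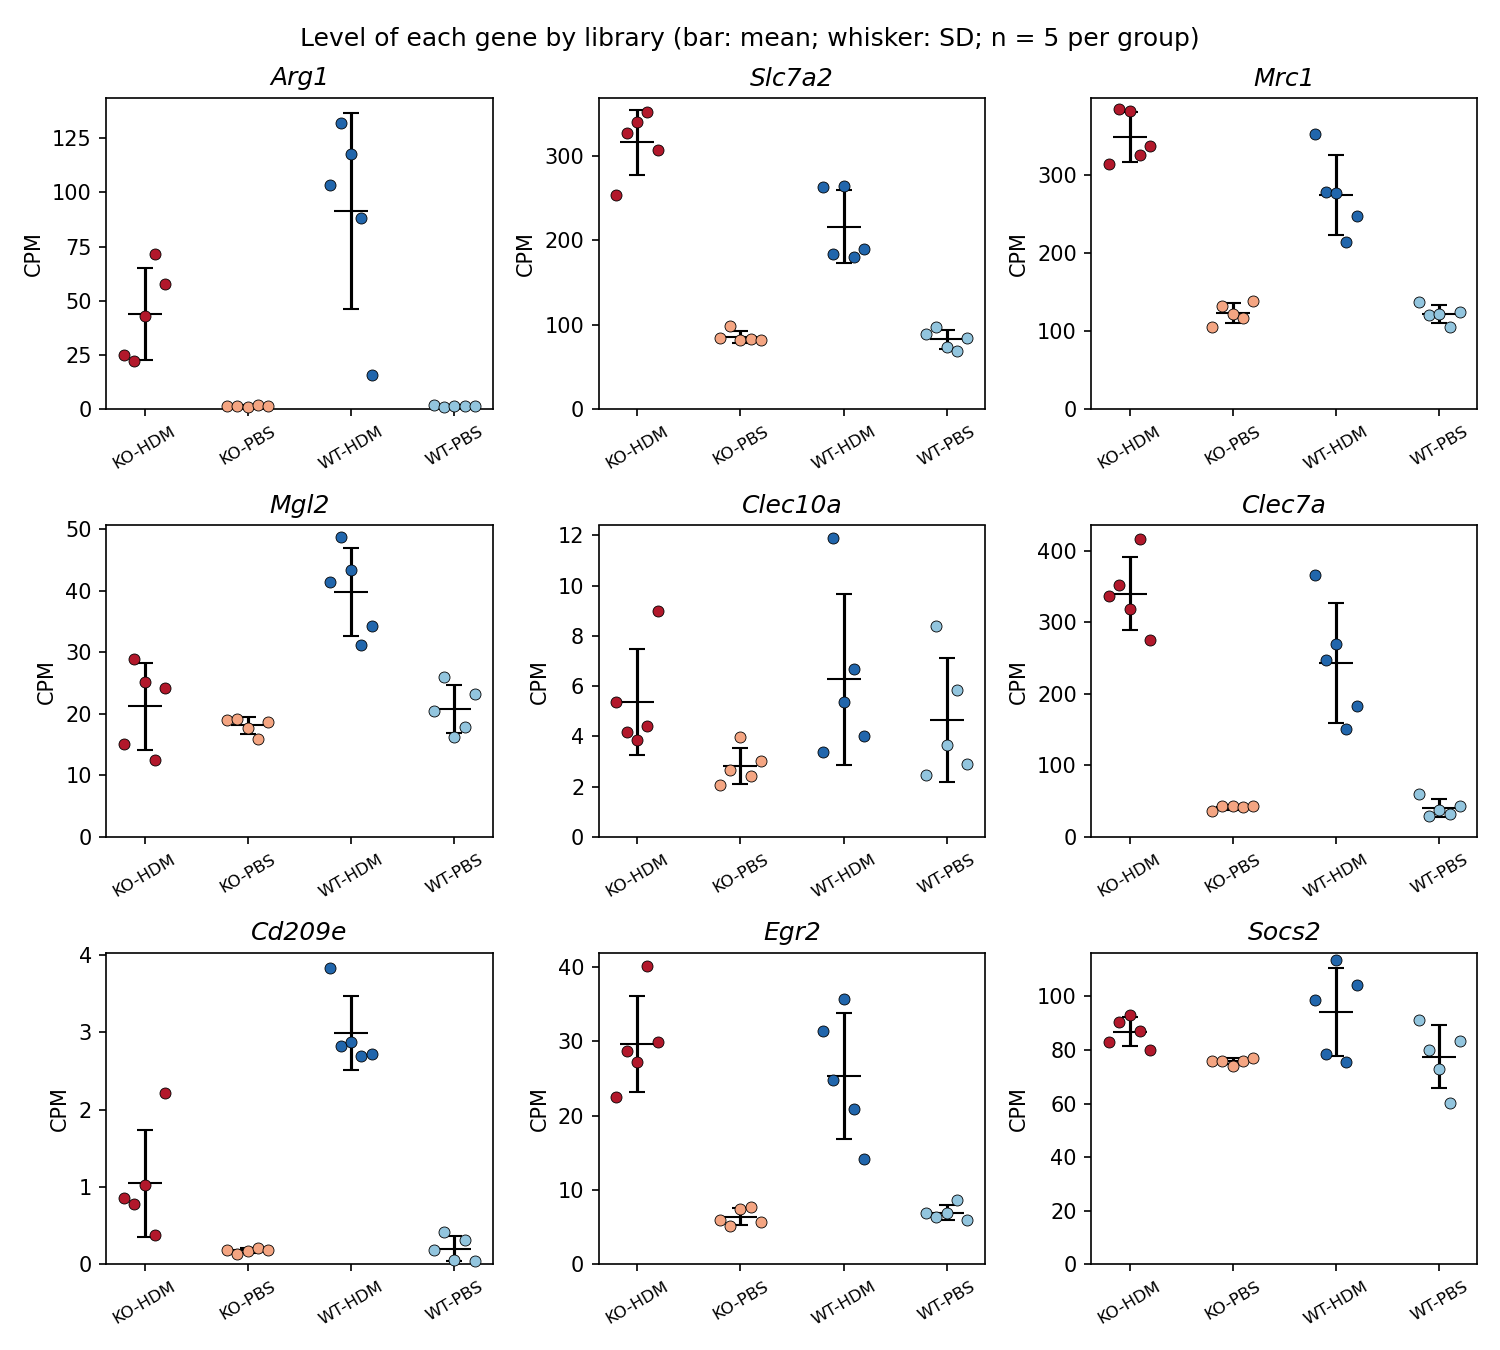
Level of each of the 9 genes in CPM (linear axis from 0) in the 5 libraries of KO-HDM, KO-PBS, WT-HDM and WT-PBS; points are libraries, horizontal bars group means and whiskers SD. For Arg1, Slc7a2, Mrc1, Clec7a, Cd209e and Egr2 every HDM library lies above every saline library of its genotype, while Clec10a overlaps in both genotypes and Mgl2 in the libraries labelled knockout.

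Arg1, which encodes the arginase that turns arginine into ornithine and urea, changed most. In the libraries labelled knockout it stood at 25.0, 22.2, 42.8, 71.6 and 58.0 CPM under HDM, against 1.77, 1.83, 1.01, 2.26 and 1.64 CPM under saline. In wild type it stood at 103, 132, 118, 88.3 and 15.9 CPM under HDM, against 2.22, 1.35, 1.49, 1.75 and 1.84 CPM under saline. No HDM library came near a saline library, and WT-HDM 5 was the lowest of all 10 HDM libraries while the other 4 of its group were the highest. The log2 fold change of HDM over saline was 4.68 ± 0.49 in the libraries labelled knockout (25.7-fold, adjusted p = 6.13e-07) and 5.73 ± 0.51 in wild type (52.9-fold, adjusted p = 4.69e-07). By group mean the order was WT-HDM (91.5 ± 45.3 CPM, SD), KO-HDM (43.9 ± 21.2), WT-PBS (1.73 ± 0.338) and KO-PBS (1.70 ± 0.451), and both pairs of neighbours within a treatment overlapped.

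Arg1 is also the arginase of the liver, and liver transcripts moved with the KO-HDM label. Alb, which encodes albumin, was at 20.1, 56.2, 76.4, 63.3 and 53.9 CPM in KO-HDM, against at most 1.10 CPM in KO-PBS, 0.256 CPM in WT-HDM and 0.825 CPM in WT-PBS. Of 21 tested liver markers 17 rose under HDM in the libraries labelled knockout. The summed level of the 23 liver markers without the widely expressed Trf and Ass1 ran from 75.8 to 422 CPM in KO-HDM, 13.3 to 56.3 CPM in KO-PBS, 12.4 to 196 CPM in WT-HDM and 14.5 to 47.1 CPM in WT-PBS. Outside KO-HDM most of this sum was 1 gene, Cyp2e1. It averaged 70.6 CPM in KO-HDM, 24.8 CPM in KO-PBS, 67.6 CPM in WT-HDM and 20.5 CPM in WT-PBS. Cps1, the first enzyme of the urea cycle and one of these markers, was at 2.08 to 8.51 CPM in KO-HDM and had 0 counts in all 5 WT-HDM libraries, the group with the highest mean Arg1. The KO-HDM library with the highest Alb, library 3, held 42.8 CPM of Arg1, and the one with the highest Arg1, library 4, held 63.3 CPM of Alb. Library 1, with the lowest Alb, held 25.0 CPM of Arg1, and library 2, with the lowest Arg1 (22.2 CPM), held 56.2 CPM of Alb. With group means removed, Arg1 and the liver markers had r = 0.40 over the 20 libraries, a description without a test. The part of liver transcripts in the Arg1 level of KO-HDM was not tested.

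Slc7a2 encodes a cationic amino acid transporter that brings arginine into the cell. Under HDM the libraries labelled knockout held 254, 327, 339, 351 and 306 CPM, against 84.6, 98.8, 81.6, 83.2 and 82.0 CPM under saline. In wild type these were 262, 183, 264, 180.4 and 189.8 CPM under HDM, against 89.1, 97.0, 73.9, 68.8 and 84.8 CPM under saline. HDM and saline libraries were apart in both genotypes, and WT-HDM fell into 2 high and 3 low libraries, of which the 2 high ones reached into the range of KO-HDM. Slc7a2 rose by 1.87 ± 0.13 on the log2 scale in the libraries labelled knockout (3.67-fold, adjusted p = 5.90e-09) and by 1.38 ± 0.13 in wild type (2.61-fold, adjusted p = 3.97e-07). Its group means ran from KO-HDM (315 ± 38.3 CPM) over WT-HDM (216 ± 43.3) to KO-PBS (86.0 ± 7.22) and WT-PBS (82.7 ± 11.4), with the saline groups overlapping. Its expected counts were not whole in 19 of 20 libraries, so some of its reads also matched other genes.

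Mrc1 encodes the macrophage mannose receptor CD206, which takes up mannosylated proteins. KO-HDM libraries held 314, 384, 381, 325 and 337 CPM, against 105, 133, 122, 117 and 139 CPM in KO-PBS. WT-HDM libraries held 353, 279, 277, 214 and 247 CPM, against 137, 121, 123, 106 and 124 CPM in WT-PBS. Every HDM library was above every saline library, and within HDM a single wild-type library, WT-HDM 1, reached the KO-HDM range. The log2 rise was 1.5 ± 0.11 in the libraries labelled knockout (2.83-fold, adjusted p = 1.49e-08) and 1.16 ± 0.11 in wild type (2.24-fold, adjusted p = 8.70e-07). The saline groups were at 123 ± 13.2 CPM (KO-PBS) and 122 ± 11.1 CPM (WT-PBS), and among the 9 genes Mrc1 had the smallest relative spread in WT-PBS (CV 9.09%).

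Clec7a encodes Dectin-1, the receptor for fungal beta-glucans, whose promoter with a match is printed above. It was at 336, 352, 318, 416 and 276 CPM in KO-HDM, against 35.6, 42.9, 43.5, 41.8 and 43.4 CPM in KO-PBS. It was at 366, 247, 269, 151 and 183 CPM in WT-HDM, against 59.8, 28.9, 38.2, 31.8 and 43.1 CPM in WT-PBS. The HDM and saline groups did not overlap, WT-HDM spread more widely than KO-HDM, and WT-HDM 1 was again the one wild-type library inside the KO-HDM range. Clec7a rose by 3.04 ± 0.22 on the log2 scale in the libraries labelled knockout (8.20-fold, adjusted p = 9.39e-09) and by 2.59 ± 0.22 in wild type (6.03-fold, adjusted p = 1.76e-07). The group means were 339.7 ± 51.1 CPM in KO-HDM, 243 ± 83.4 CPM in WT-HDM, 41.4 ± 3.32 CPM in KO-PBS and 40.4 ± 12.2 CPM in WT-PBS, in descending order, and the saline groups overlapped.

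Cd209e belongs to the mouse CD209 family of C-type lectins, relatives of the human pathogen receptor DC-SIGN, and its level was low. KO-HDM libraries were at 0.854, 0.780, 1.02, 0.386 and 2.21 CPM (7 to 41 counts), against 0.191, 0.141, 0.176, 0.217 and 0.182 CPM in KO-PBS (3 to 5 counts). WT-HDM libraries were at 3.83, 2.82, 2.88, 2.69 and 2.72 CPM (37 to 62 counts), against 0.190, 0.415, 0.0532, 0.322 and 0.0471 CPM in WT-PBS (1 to 8 counts). Each group under HDM stood above its saline group, and all 5 WT-HDM libraries stood above all 5 KO-HDM libraries. The rise was 2.49 ± 0.46 on the log2 scale in the libraries labelled knockout (5.61-fold, adjusted p = 0.000177) and 3.81 ± 0.45 in wild type (14.1-fold, adjusted p = 7.95e-06). The few counts under saline leave both folds imprecise.

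Mgl2 and Clec10a encode the mouse galactose-type lectins CD301b and CD301a, made by alternatively activated macrophages and by dendritic cells. The pair lies side by side on chromosome 11 with 0 protein-coding genes between them, and 7 between Clec10a and Alox15 (RefSeq, GRCm38.p6). Those 7 did not pass between genotypes under saline or under HDM (edgeR adjusted p of 0.206 or more). Their transcripts share a run of 183 identical bases, and 15.3% of the 50-base windows of the longest Mgl2 transcript occur in Clec10a (GENCODE M21). Expected counts of both were not whole numbers, within a tolerance of 0.001, in 20 of 20 libraries, so reads were shared out between genes and the split within the pair is uncertain.

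Mgl2 was at 15.1, 28.9, 25.2, 12.6 and 24.2 CPM in KO-HDM, against 19.0, 19.2, 17.7, 15.96 and 18.7 CPM in KO-PBS. It was at 41.5, 48.8, 43.3, 31.1 and 34.2 CPM in WT-HDM, against 20.5, 26.0, 16.2, 17.9 and 23.2 CPM in WT-PBS. WT-HDM stood above the 15 other libraries, while KO-HDM had 3 libraries above and 2 below the whole KO-PBS group. The log2 fold change of HDM over saline was 0.23 ± 0.19 in the libraries labelled knockout (95% interval -0.17 to 0.63, adjusted p = 0.326) and 0.94 ± 0.19 in wild type (1.91-fold, adjusted p = 0.0012).

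Clec10a was at 5.39, 4.19, 3.84, 4.41 and 9.0 CPM in KO-HDM, against 2.06, 2.68, 3.96, 2.43 and 3.01 CPM in KO-PBS. It was at 3.40, 11.9, 5.36, 6.67 and 4.01 CPM in WT-HDM, against 2.48, 8.39, 3.67, 5.84 and 2.92 CPM in WT-PBS. All groups overlapped, with 1 high library in KO-HDM and 2 in each wild-type group. HDM over saline gave a log2 fold change of 0.92 ± 0.36 in the libraries labelled knockout (adjusted p = 0.0397) and 0.42 ± 0.36 in wild type (interval -0.33 to 1.18, adjusted p = 0.398). The call in the libraries labelled knockout ended with limma voom (adjusted p = 0.0505) and without any of 9 libraries, KO-HDM 1, 4 or 5, KO-PBS 1, 2, 4 or 5, WT-HDM 4 or WT-PBS 3 (adjusted p 0.0538 to 0.14).

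In 3 of the 4 groups Clec10a was highest in the libraries with most of the fat cell gene Adipoq. The 5 libraries with at least 50 CPM of Adipoq held 166.8 CPM (KO-HDM 5), 124.5 and 168.7 CPM (WT-HDM 2 and 4) and 85.1 and 102.6 CPM (WT-PBS 2 and 4), and no other library exceeded 27.7 CPM. These were the libraries with the highest Clec10a of their group in all of those 3 groups. KO-PBS did not follow this order: its library 3 had the highest Clec10a (3.96 CPM) and the lowest Adipoq (0.308 CPM), and libraries 2 and 4, with the most Adipoq (27.7 and 25.8 CPM), ranked 3 and 4 of 5 for Clec10a. The summed level of the 9 adipose markers ran from 11.04 to 1678 CPM in KO-HDM, 19.5 to 282 CPM in KO-PBS, 30.7 to 1722 CPM in WT-HDM and 24.6 to 1159 CPM in WT-PBS. With the group means removed, Clec10a and the adipose markers had r = 0.76 over the 20 libraries, a description without a test. Without the 5 libraries Clec10a responded to HDM with a log2 fold change of 0.64 in those with the knockout label (adjusted p = 0.0131) and 0.47 in the wild-type ones (adjusted p = 0.192).

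**Figure D2:**
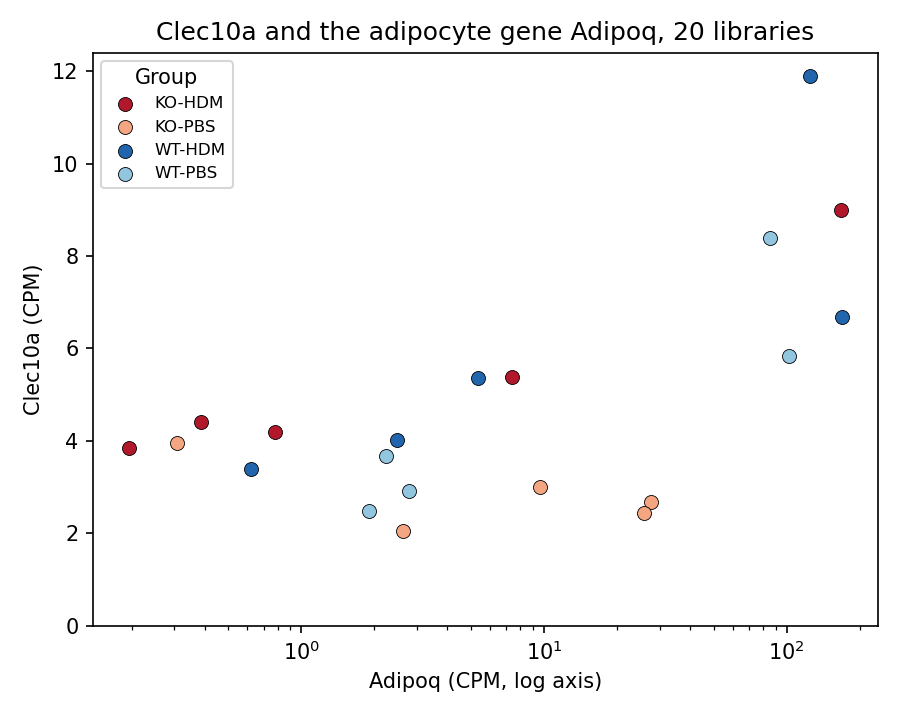
Clec10a (CPM, linear axis from 0) against the fat cell gene Adipoq (CPM, log axis) in the 20 libraries, coloured by group. The highest Clec10a values of KO-HDM, WT-HDM and WT-PBS belong to the 5 libraries with Adipoq of 85.1 CPM or more.

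Egr2 encodes a zinc finger transcription factor that IL-4 induces in mouse macrophages. It was at 22.5, 28.7, 27.2, 40.1 and 29.9 CPM in KO-HDM, against 6.03, 5.21, 7.48, 7.74 and 5.65 CPM in KO-PBS. It was at 31.3, 24.8, 35.7, 20.9 and 14.2 CPM in WT-HDM, against 6.92, 6.43, 6.91, 8.65 and 5.98 CPM in WT-PBS. The HDM groups stood clear of the saline groups and overlapped with each other. The log2 rise was 2.21 ± 0.21 in the libraries labelled knockout (4.62-fold, adjusted p = 1.44e-07) and 1.86 ± 0.21 in wild type (3.63-fold, adjusted p = 3.93e-06). In descending order the means were 29.7 ± 6.47 CPM in KO-HDM, 25.4 ± 8.46 CPM in WT-HDM, 6.98 ± 1.01 CPM in WT-PBS and 6.42 ± 1.12 CPM in KO-PBS, and the saline groups overlapped as well.

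Socs2 encodes a suppressor of cytokine signalling that is best known for limiting growth hormone signals through STAT5. It was at 83.1, 90.6, 93.1, 87.2 and 80.0 CPM in KO-HDM, against 76.1, 75.9, 74.1, 76.0 and 77.0 CPM in KO-PBS. It was at 98.5, 78.5, 114, 75.6 and 104 CPM in WT-HDM, against 91.1, 80.2, 72.9, 60.4 and 83.3 CPM in WT-PBS. The groups labelled knockout were narrow and did not overlap, with a CV of 6.16% in KO-HDM and 1.37% in KO-PBS, the smallest of the 9 genes in each, while the wild-type groups overlapped. The log2 fold change of HDM over saline was 0.20 ± 0.11 in the libraries labelled knockout (1.15-fold, adjusted p = 0.137) and 0.28 ± 0.11 in wild type (1.21-fold, adjusted p = 0.0581). Fitted on the 10 libraries labelled knockout alone, whose spread is smaller, the difference passed (adjusted p = 0.00784), and the exact two-sided permutation p was 0.00794, the smallest that 5 against 5 libraries allow. It also passed there without WT-HDM 3 (adjusted p = 0.0458). In wild type it passed in 15 of 29 alternatives. These were DESeq2 (adjusted p = 0.0337), DESeq2 size factors (0.0474), upper quartile scaling (0.0474), no filter on low counts (0.0304), a filter of 1 CPM in 5 libraries (0.0253), and fits without WT-HDM 2 (0.0156), WT-HDM 4 (0.0177), WT-PBS 1 (0.0223) WT-PBS 5 (0.0350) or any one KO-PBS library (0.0336 to 0.0346), beside the fit without the 5 libraries rich in Adipoq. In that last fit it passed in both genotypes, at 0.21 in the libraries labelled knockout (adjusted p = 0.0204) and 0.35 in wild type (adjusted p = 0.0099).

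**Figure D3:**
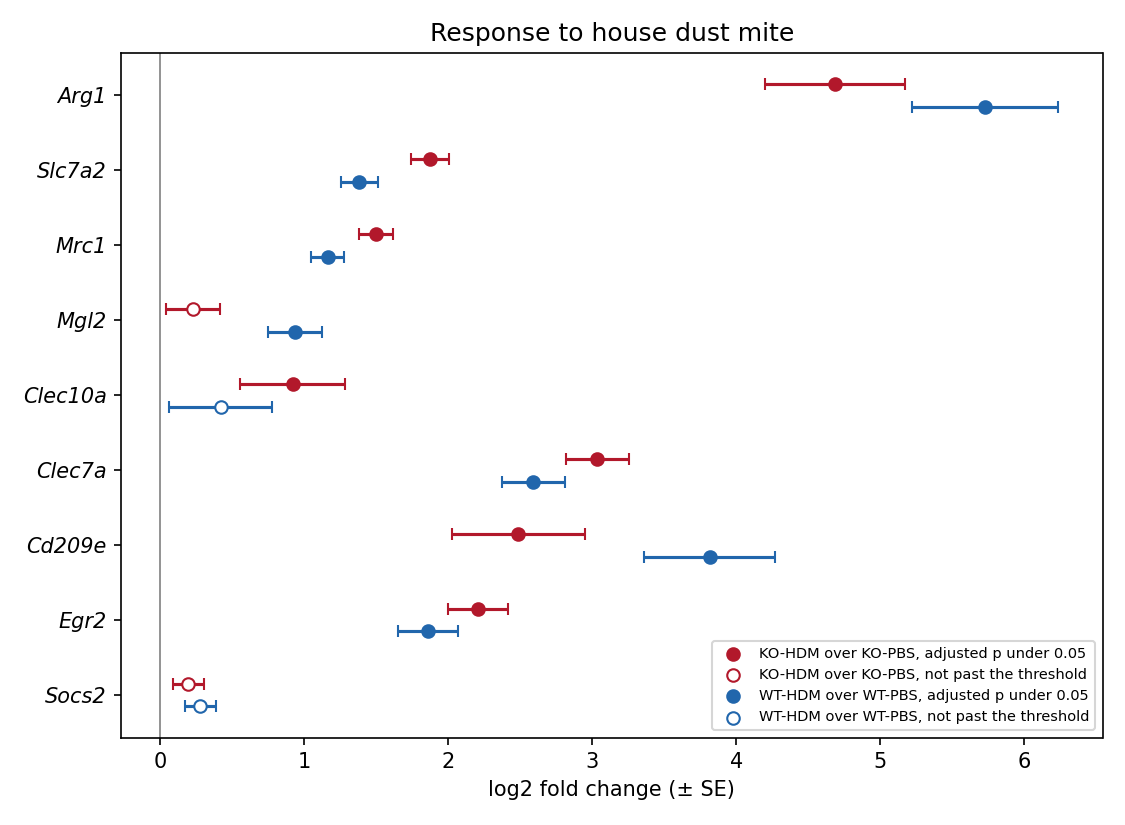
Log2 fold change of HDM over saline (horizontal axis, with SE as bars) for the 9 genes in the libraries labelled knockout and in wild type; filled points passed an adjusted p of 0.05. Arg1 lies farthest to the right in both, at 4.68 in the libraries labelled knockout and 5.73 in wild type, and Mgl2, Clec10a and Socs2 lie closest to 0.

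For 7 of the 9 genes in each genotype every HDM library was above every saline library. Among all tested genes 22.1% were arranged in this way in the libraries labelled knockout and 5.93% in wild type. Markers of macrophages in general moved in the same direction: 12 of 13 tested markers rose under HDM in the libraries labelled knockout and 9 of 13 in wild type. Their summed level ran from 5415 to 8752 CPM in KO-HDM and 3931 to 5695 CPM in KO-PBS, and from 3223 to 5964 CPM in WT-HDM and 2841 to 4147 CPM in WT-PBS. The median log2 rise of these markers was 1.52 in the libraries labelled knockout and 0.75 in wild type, below the median of the 9 genes in each. Lung lineage markers moved the other way: 13 of 16 fell and 0 rose in the libraries labelled knockout (summed level 14458 to 23100 CPM in KO-HDM, 37588 to 52386 CPM in KO-PBS), and 7 fell and 1 rose in wild type (14469 to 30724 CPM in WT-HDM, 30450 to 42744 CPM in WT-PBS). All 9 red blood cell markers fell in each genotype. The part of macrophage number and of these other cell types in the rises was not tested.

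Between genotypes under saline, 0 of the 9 genes passed the test, while 0.908% of all genes were called. Without adjustment 0 of the 9 had a p under 0.05, beside 15.7% of all genes. DESeq2 and limma voom called 0 as well. The groups of the 2 genotypes overlapped for all 9 genes, while 3.06% of all tested genes did not overlap. The 95% intervals of the log2 fold change (KO-PBS over WT-PBS) were narrow for Mrc1 (-0.23 to 0.25), Slc7a2 (-0.21 to 0.32) and Socs2 (-0.26 to 0.20), and wide for Arg1 (-1.09 to 1.06) and Cd209e (-1.30 to 0.95). Clec10a was at 2.83 ± 0.722 CPM in KO-PBS and 4.66 ± 2.46 CPM in WT-PBS, a log2 difference of -0.72 (interval -1.49 to 0.05, adjusted p = 0.339). Without the 5 libraries rich in Adipoq that difference was -0.09. The saline groups differed in blood transcripts, with 9 of 9 red blood cell markers higher in KO-PBS. Their summed level ran from 9632 to 19947 CPM in KO-PBS and 2564 to 6164 CPM in WT-PBS.

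Under HDM 3 of the 9 genes differed between genotypes, beside 6.67% of all genes (4.79% higher and 1.88% lower in KO-HDM). Slc7a2 was higher, and Mgl2 and Cd209e were lower, in KO-HDM than in WT-HDM. Without adjustment 6 of the 9 had a p under 0.05, beside 21.2% of all genes. The median log2 difference of the 9 genes was -0.12, beside -0.01 over all genes.

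Mgl2 averaged 21.2 ± 7.01 CPM in KO-HDM and 39.8 ± 7.10 CPM in WT-HDM (SD, n = 5 each). Its log2 fold change was -0.91 ± 0.19 with an edgeR adjusted p of 0.00644, and the groups did not overlap (exact permutation p = 0.00794). Cd209e averaged 1.05 ± 0.689 CPM in KO-HDM and 2.99 ± 0.478 CPM in WT-HDM, a log2 fold change of -1.50 ± 0.38 (adjusted p = 0.0227), again with no overlap. Among all tested genes 2.21% lay below WT-HDM in every KO-HDM library. The call on Cd209e ended without WT-HDM 1 (adjusted p = 0.0520) or without KO-HDM 1, 2, 3 or 4 (0.0504 to 0.0707), and the direction did not change there. KO-HDM 5, the KO-HDM library rich in Adipoq, held the highest Cd209e of its group, as did WT-PBS 2 and 4 (0.415 and 0.322 CPM). WT-HDM did not follow this order. Its libraries 2 and 4 held 2.82 and 2.69 CPM, while library 1, with the lowest Adipoq (0.618 CPM), held 3.83 CPM. With group means removed, Cd209e and the adipose markers had r = 0.55 over 20 libraries. Without the 5 libraries rich in Adipoq the log2 fold change was -2.03 for Cd209e (adjusted p = 0.00182) and -0.94 for Mgl2 (adjusted p = 0.0179).

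Slc7a2 averaged 315 ± 38.3 CPM in KO-HDM and 216 ± 43.3 CPM in WT-HDM (SD, n = 5 each). Its log2 fold change was 0.55 ± 0.12 (1.46-fold, adjusted p = 0.0115), the groups overlapped, and the exact permutation p was 0.0238. Without the libraries rich in Adipoq it was 0.42 and no longer passed (adjusted p = 0.0682). Mrc1 (0.35, adjusted p = 0.0713) and Clec7a (0.48, adjusted p = 0.172) had positive differences that did not pass. Both lost their overlap with KO-HDM without WT-HDM 1, and there Mrc1 was at 0.45 (adjusted p = 0.00944) and Clec7a at 0.67 (adjusted p = 0.0370). DESeq2 called Mrc1 with all libraries (adjusted p = 0.0274).

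Arg1 had a log2 difference of -1.06 ± 0.40 between KO-HDM and WT-HDM (interval -1.90 to -0.21), which did not pass (adjusted p = 0.125). The result turned on WT-HDM 5, at 15.9 CPM, without which it was -1.34 (adjusted p = 0.00693). Liver transcripts, given above, were present on the KO-HDM side of this comparison. WT-HDM 5 also held the highest lung lineage sum of its group (30724 CPM). WT-HDM 1, with the next highest sum (26270 CPM), held 103 CPM of Arg1. With group means removed, Arg1 and the lung lineage markers had r = -0.70 over the 20 libraries, a description without a test. Egr2 was at 0.23 (interval -0.19 to 0.65), Socs2 at -0.12 (-0.35 to 0.11) and Clec10a at -0.22 (-0.98 to 0.53).

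**Figure D4:**
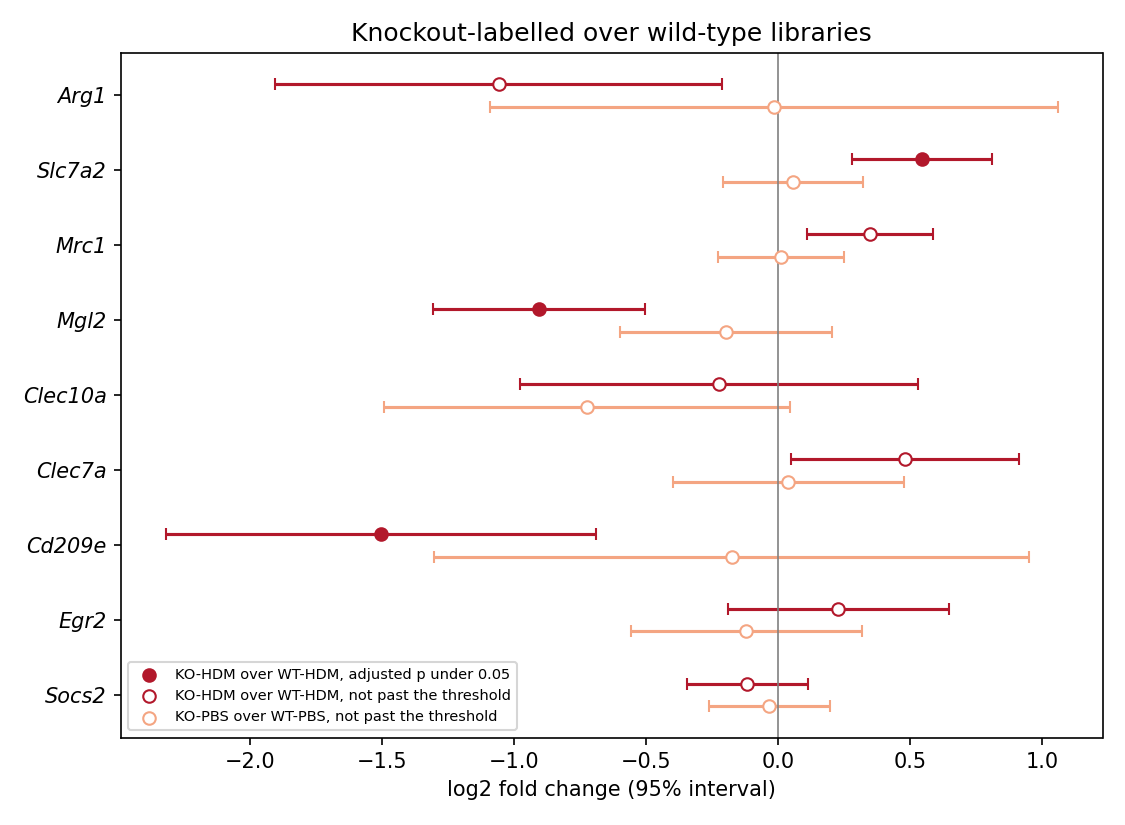
Log2 fold change of libraries labelled knockout over wild type (horizontal axis, with 95% intervals as bars) for the 9 genes under HDM and under saline; filled points passed an adjusted p of 0.05. Slc7a2 (0.55), Mgl2 (-0.91) and Cd209e (-1.50) are filled under HDM, and no gene is filled under saline.

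General macrophage markers also differed between genotypes under HDM, where 7 of 13 were higher in KO-HDM and 0 lower. Emr1, which encodes the surface protein F4/80, averaged 144.4 ± 39.4 CPM in KO-HDM and 49.0 ± 6.17 CPM in WT-HDM (log2 1.56), and Cd68, a lysosomal protein, averaged 133.3 ± 29.8 CPM in KO-HDM and 60.7 ± 24.1 CPM in WT-HDM (log2 1.13). Markers of interstitial macrophages and monocytes were 8 higher and 1 lower of 14. Dendritic cell markers were 3 higher and 1 lower of 11, the lower one being Cd209a (-0.90), which encodes another CD209 lectin. Of 13 alveolar macrophage markers 0 were higher and 1 was lower, Krt79 (-1.33), with a median log2 difference of -0.05. Their summed level ran from 4392 to 8380 CPM in KO-HDM (median 5788) and 6254 to 12404 CPM in WT-HDM (median 6928). Most of this sum was Chil3, also counted below as a gene of alternative activation, at a mean of 4725 CPM in KO-HDM and 6697 CPM in WT-HDM. The highest KO-HDM sum was that of KO-HDM 5, rich in Adipoq, and Cidec and Fabp4 are adipose markers as well. Neutrophil markers were higher for 5 of 7 (sum 139.3 to 354.5 CPM in KO-HDM, 69.4 to 174.6 CPM in WT-HDM). Red blood cell markers were higher for 9 of 9 (2924 to 4990 CPM in KO-HDM, 1263 to 2053 CPM in WT-HDM), as they were under saline. Skeletal muscle markers were lower for 6 of 8, with a sum of 2.63 to 52.6 CPM in KO-HDM, 5536 CPM in WT-HDM 2 and at most 49.1 CPM in the other WT-HDM libraries. The part of cell types and tissue carried along in the differences of Mgl2, Cd209e and Slc7a2 was not tested.

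The difference between the genotypes in the HDM response itself was tested by the interaction. It passed for 0 of the 9 genes with edgeR, and with DESeq2 and limma voom as well, while 1.24% of all genes were called. Without adjustment 3 of the 9 had a p under 0.05, beside 16% of all genes. Slc7a2 had the positive interaction with the smallest p (0.49 ± 0.18, adjusted p = 0.178) and Mgl2 the negative one (-0.71 ± 0.27, interval -1.28 to -0.14, adjusted p = 0.198). Mrc1 was at 0.34 (adjusted p = 0.310), Arg1 at -1.04 (interval -2.41 to 0.33) and Cd209e at -1.33 (interval -2.75 to 0.09). Mgl2 passed in wild type and not in the libraries labelled knockout, but its 2 responses were not shown to differ. Without the 5 libraries rich in Adipoq the interaction of Cd209e was -2.99 and passed (adjusted p = 0.0439). That fit keeps only libraries 1, 3 and 5 of each wild-type group. In WT-PBS these held 3, 1 and 1 counts of Cd209e, so the call rests on very few reads.

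The 9 genes did not vary as one set between mice of a group. With group means removed, the log2 CPM of 27 of 36 pairs correlated positively over the 20 libraries, with a median r of 0.17. Mrc1 with Clec7a (r = 0.74), Slc7a2 with Socs2 (0.69), Arg1 with Egr2 (0.68) and Slc7a2 with Mrc1 (0.61) were the closest pairs. Clec10a ran against Socs2 (-0.61) and Clec7a (-0.50). All points share library depth and tissue composition, and no test was made. Clec7a followed the neutrophil markers (r = 0.83) and the general macrophage markers (0.71), and Socs2 ran against the adipose (-0.67) and B cell markers (-0.68).

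**Figure D5:**
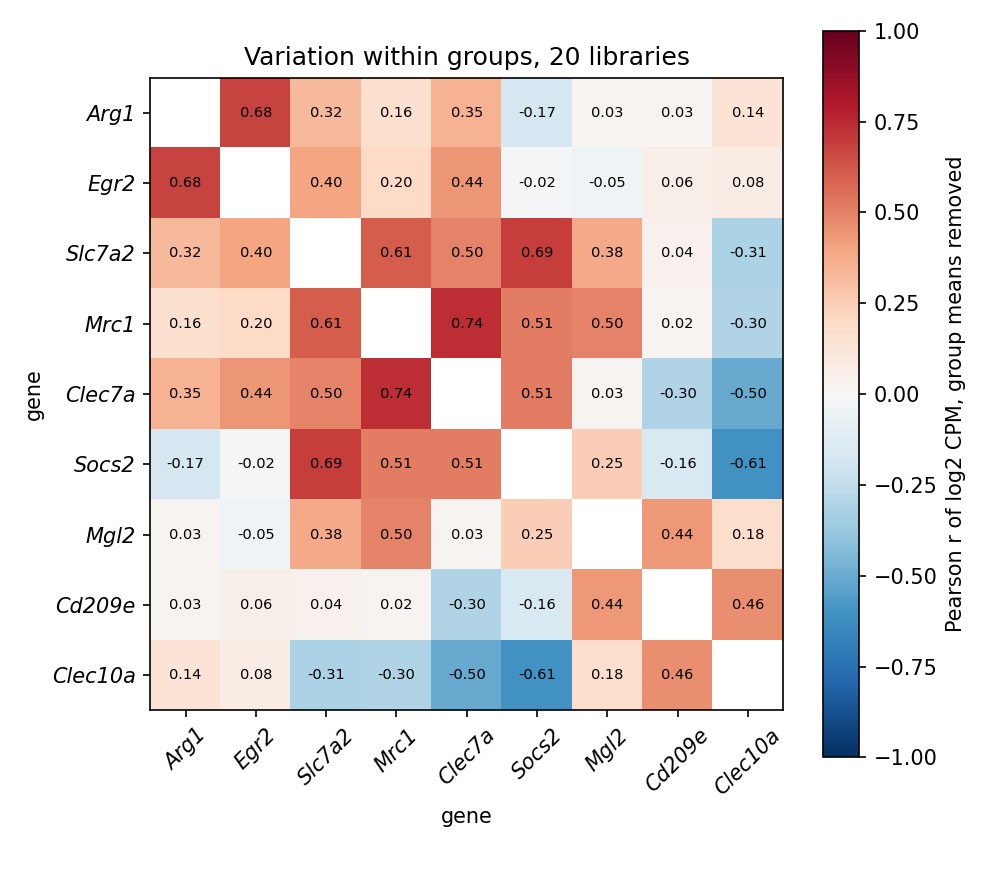
Pearson r between each pair of the 9 genes (rows and columns), from log2 CPM with the mean of each group removed, over 20 libraries; red is positive and blue negative. Mrc1, Clec7a, Slc7a2 and Socs2 share positive values up to 0.74, and Clec10a is negative with Socs2 (-0.61).

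Among about 12966 genes with a mean log2 CPM of at least 2, those most like each member within groups were named by r over the 20 libraries. Clec7a was closest to Clec4a2 (r = 0.95), a lectin receptor of myeloid cells, and to Lilrb4 (0.92). Socs2 was closest to Atp13a3 (0.95) and Pik3r3 (0.94), and Clec10a to Pkdcc (0.92) and Fastk (0.90). Egr2 was closest to Dok2 and Nrbf2 (0.85 each). Arg1 came nearest to Eif4e and Cdca2 (0.78 each), Slc7a2 to Noxo1 (0.78) and Creb5 (0.77), and Mrc1 to Tbxas1 and Chil1 (0.79 each). Mgl2 (Fbp1 0.73, Slc5a1 0.71) and Cd209e (Aspa 0.77, Ccl11 0.77) had the weaker neighbours.

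Other genes of alternative activation rose with the members. Of 23 tested, 14 rose and 2 fell under HDM in the libraries labelled knockout, and 17 rose and 1 fell in wild type. Their median log2 fold change was 2.04 in the libraries labelled knockout and 2.01 in wild type. Alox15 itself is among the 23, and its own value in wild type is that median of 2.01. In the libraries labelled knockout Alox15 was at 0.0093 (adjusted p = 0.987). Retnla, which encodes a resistin-like secreted protein, averaged 1680 ± 581 CPM in KO-HDM and 53.6 ± 20.01 CPM in KO-PBS (log2 4.97), and 2692 ± 781 CPM in WT-HDM and 114.3 ± 65.0 CPM in WT-PBS (log2 4.56). Chil3 encodes a chitinase-like protein and is uncertain because of its near copy Chil4; it rose by 3.51 in the libraries labelled knockout and by 4.12 in wild type. Between genotypes under HDM, Ccl24, an attractant of eosinophils, was lower in KO-HDM (1.62 ± 1.51 CPM) than in WT-HDM (10.2 ± 6.11 CPM; log2 -2.66, adjusted p = 0.0198), and Fn1 and Trem2 were higher (0.84 and 0.69). Trem2 was already higher under saline, in KO-PBS over WT-PBS (log2 1.10, adjusted p = 0.00694).

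Of 18 tested genes of IL-4 and IL-13 signalling and its regulators, 10 rose and 3 fell under HDM in the libraries labelled knockout, and 5 rose and 0 fell in wild type. Irf4, a transcription factor with a role in alternative activation in mice, rose by 2.81 in the libraries labelled knockout and by 1.39 in wild type, and the alarmin Il33 rose by 1.18 in the libraries labelled knockout and by 1.60 in wild type. Under HDM Il1rl1, the receptor of IL-33, was lower in KO-HDM (9.68 ± 1.80 CPM) than in WT-HDM (17.0 ± 3.96 CPM; log2 -0.81, adjusted p = 0.00884), and Rbpj was higher (0.49).

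Around Arg1 and Slc7a2, 8 of 20 tested genes of arginine and polyamine metabolism rose and 5 fell in the libraries labelled knockout, and 7 rose and 1 fell in wild type. Gatm, which starts creatine synthesis from arginine, averaged 48.4 ± 14.5 CPM in KO-HDM and 3.27 ± 0.786 CPM in KO-PBS (log2 3.88), and 28.9 ± 8.43 CPM in WT-HDM and 5.62 ± 3.72 CPM in WT-PBS (log2 2.36). Nos2, the inducible nitric oxide synthase that competes for arginine, rose by 1.41 in the libraries labelled knockout and by 1.39 in wild type. Arg2, the mitochondrial arginase, rose in wild type (0.64) and was at 0.41 in the libraries labelled knockout (adjusted p = 0.0898). Under HDM Ass1, an arginine-making enzyme that is also abundant in liver, was higher in KO-HDM than in WT-HDM (0.88), and Nos3, the endothelial nitric oxide synthase, was lower (-0.68).

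Of 26 other C-type lectin receptors, 13 rose and 4 fell under HDM in the libraries labelled knockout, and 10 rose and 3 fell in wild type. Clec4n, which encodes Dectin-2, rose by 3.38 in the libraries labelled knockout and by 2.38 in wild type, and Clec4a2 rose by 3.07 in the libraries labelled knockout and by 2.62 in wild type. Under HDM 8 of the 26 were higher in KO-HDM than in WT-HDM and 2 lower. Clec12a, an inhibitory receptor of myeloid cells, averaged 46.8 ± 16.2 CPM in KO-HDM and 16.7 ± 3.46 CPM in WT-HDM (log2 1.49), and Clec4d and Clec4e, receptors for mycobacterial glycolipid, were at 1.68 and 1.59. Of 13 genes that signal from Dectin receptors and integrins, 11 rose in the libraries labelled knockout and 8 in wild type, with 1 lower in each. Malt1 rose by 1.82 in the libraries labelled knockout and by 1.30 in wild type.

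Relatives of Egr2 and Socs2 were counted as well. Of 9 tested EGR family genes and partners, 0 rose and 3 fell in each genotype, Fosb, Jun and Ier2. Among 7 other SOCS family genes 3 rose (Socs1, Socs3 and Socs6) and 2 fell in the libraries labelled knockout, and 1 rose (Socs3) and 1 fell (Socs5) in wild type. Of 9 genes of the STAT5 and growth hormone axis, 4 rose and 2 fell in the libraries labelled knockout, and 3 rose and 2 fell in wild type. Igf1 rose by 2.65 in the libraries labelled knockout and by 1.39 in wild type, and its interaction of 1.26 passed (adjusted p = 0.0285).

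Genes of classical activation, the state that interferon-gamma and bacterial products bring about, rose as well. Of 18 tested, 11 rose in the libraries labelled knockout and 6 in wild type, with 0 lower in either, and their median log2 change was 0.82 in the libraries labelled knockout and 0.51 in wild type. Under HDM 4 were higher in KO-HDM and 0 lower. Cxcl9, an interferon-induced chemokine, averaged 45.7 ± 23.6 CPM in KO-HDM and 5.96 ± 1.82 CPM in WT-HDM (log2 2.94), and Cxcl10 and Gbp2 were at 2.21 and 1.11.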

How the data were processed

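Gene expression was measured in whole lung of 20 mice in 4 groups of 5. Per the labels' protocols, oligo-dT selected RNA was made into libraries with dUTP strand marking, and ribosomal RNA depletion is also mentioned. Per the submitters' processing notes, the tools were Bowtie2 2.1.0 and RSEM 1.2.15 and the genome build is named as hg38. That is a human build, while the genes carry mouse symbols, so the build behind the counts is unknown and coordinates are given only for RefSeq promoters. The deposited values are expected counts per gene and library as the authors estimated them with RSEM, not normalized. RSEM divides reads that match several genes among them.

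Expected counts were rounded, filtered with filterByExpr by group (16193 of 24054 genes), normalized by TMM and analysed with edgeR 4.0.16 under R 4.3.3. The robust quasi-likelihood test used the means of the 4 groups over all 20 libraries, with 16 residual degrees of freedom. P-values were adjusted by Benjamini-Hochberg over all genes of a comparison. CPM uses the TMM-scaled library size, intervals are 95%, and within-group r uses log2 CPM with a prior count of 2. No gene lengths were given, so levels are not compared between genes. The labels call the replicates biological and say no more of their origin, so p-values measure the spread between these libraries, which may be partly technical. The code was tested on simulated data with known changes.

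The members and gene lists were chosen with earlier results of these data known. Named are all 9 members, Alox15, per list genes among the up to 4 past the test with the largest change and a mean log2 CPM of at least 0, and per member the 2 genes with the highest within-group r. Alb, Adipoq, Cps1, Sftpc and Scgb1a1 were named as markers after their values were seen. Alternatives were DESeq2 1.42.0, limma 3.58.1 voom, other scaling and filters, a threshold of 0.01, the 10 compared libraries alone, a replicate block and each library left out, and, chosen after seeing the data, a fit without the 5 libraries with at least 50 CPM of Adipoq.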

Additional observations from a re-analysis of the deposited data

Results flagged for a closer look

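In 3 of the 36 sets of 5 libraries (9 genes in 4 groups) the highest or lowest library stood apart from the rest of its group by more than the 95% critical value of Dixon's test. Chance flags about 1 in 20 such sets. Slc7a2 was at 98.8 CPM in KO-PBS 2, and the other KO-PBS libraries were between 81.6 and 84.6 CPM. Clec7a was at 35.6 CPM in KO-PBS 1, below the 41.8 to 43.5 CPM of the others. Cd209e was at 3.83 CPM in WT-HDM 1, above the 2.69 to 2.88 CPM of the others, and the call on Cd209e between genotypes under HDM ended without this library.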

How the results depend on the processing

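Over 1294 refits of single genes, 1231 kept their direction and their side of the threshold, 23 gained a call, 16 lost one and 24 changed sign. No member that passed changed sign. The rises of Arg1, Slc7a2, Mrc1, Clec7a, Cd209e and Egr2 in both genotypes and the lower Mgl2 in KO-HDM passed under each alternative at 0.05 that gave a value; Cd209e had none in the 10 libraries labelled knockout alone, where it was not among the genes left by the filter on low counts. The number of members called was 7 in the libraries labelled knockout (6 to 8 with a library left out), 7 in wild type (7 to 8), 0 between genotypes under saline (0), 3 under HDM (2 to 4; 1 at a threshold of 0.01) and 0 for the interaction (0; 1 without the 5 libraries rich in Adipoq). All sign changes were among differences that did not pass. Between genotypes under saline they were Arg1 without a filter (0.0056), Mrc1 with a filter of 1 CPM in 5 libraries (-0.0035), Cd209e with voom (0.18) and, without the libraries rich in Adipoq, Mrc1 (-0.044), Clec7a (-0.17) and Cd209e (0.96). With a library left out these ran from -0.15 to 0.11 for Arg1, -0.45 to 0.26 for Cd209e, -0.034 to 0.24 for Clec7a, -0.040 to 0.076 for Mrc1, -0.0063 to 0.15 for Slc7a2 and -0.11 to 0.049 for Socs2. Under HDM Clec10a was at 0.076 without the libraries rich in Adipoq and between -0.49 and 0.14 with a library left out. Over the whole table, 4866 genes were called for HDM in wild type (2746 at 0.01, 2854 in the 10 libraries alone), 147 between genotypes under saline (91 at 0.01, 327 with DESeq2), 1080 under HDM (398 at 0.01, 576 to 1396 with a library left out) and 200 for the interaction (32 at 0.01, 608 with DESeq2, 103 without the libraries rich in Adipoq, 79 to 260 with a library left out). The causes were not tested.

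Replicate numbers were shared between groups, and residuals of libraries with the same number correlated between -0.457 and 0.506. Libraries with different numbers were not compared, so these values cannot show whether the numbers pair the libraries. Libraries 2 and 4 held the most Adipoq in WT-HDM, WT-PBS and KO-PBS, while in KO-HDM it was library 5. With the replicate block 7, 7, 0, 3 and 0 members were called, in the libraries labelled knockout, in wild type, between genotypes under saline and under HDM, and for the interaction, and no call on a member changed. The counts over the whole table were then 8584, 5058, 160, 1047 and 246. Depth limits Cd209e most, with 1 to 8 counts per saline library.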
